A study of Mus musculus with 10 samples.

Results

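The genotype difference in bone marrow-derived basophils (BMBs) was examined on 4 of the 10 arrays of the study. These were B6 and Slpi-/- BMBs that were not stimulated, and B6 and Slpi-/- BMBs that received IgE and antigen. The 4 arrays were chosen by their labelled cell type, and the genotypes were compared within each state of stimulation. Bone marrow cells of C57BL6/N mice, wildtype (B6) or Slpi-/-, were grown with IL-3, and c-kit- DX5+ cells were taken as basophils with magnetic beads. For stimulation, BMBs were loaded with anti-TNP-IgE for 1 h and then given TNP-ovalbumin, the antigen of that IgE, for 12 h. The other 6 arrays held mast cells (2 arrays) and eosinophils (BMEos, 4 arrays, of which 2 had LPS) of the same genotypes. Each condition was measured on 1 array, so a difference between the arrays of a pair has no replicate check, and how many mice or cultures went into an array is not given in the sources used here.

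Secretory leukoprotease inhibitor (SLPI) is a small secreted protein that blocks serine proteases such as neutrophil elastase, and it also acts inside cells on inflammatory signalling. Basophils are rare granulocytes that carry the high-affinity IgE receptor FcεRI. When antigen crosslinks IgE on that receptor, kinases of the LYN and SYK families start a cascade that ends in release of histamine and lipid mediators and in transcription of cytokine genes such as Il4, Il6 and Il13. Values below are log2 signals of the deposited arrays, on which a step of 1 is a factor of 2, and differences are Slpi-/- minus B6. The background of an array was set at the 95th percentile of its 1027 olfactory receptor genes, taken as silent here, and came to 5.56 to 5.68 on the BMB arrays.

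Slpi checked the genotype labels. Its log2 signal without stimulation was 11.42 in B6 BMBs and 6.55 in Slpi-/- BMBs, and with IgE it was 11.33 and 6.35. Both B6 arrays stood far above both Slpi-/- arrays. The remaining Slpi-/- signal lay above the background of these arrays, and whether the probes lie inside the deleted part is not given in the sources used here. The basophil label also held: Mcpt8, a granule protease by which mouse basophils are recognised, stood at 12.96 in B6 and 12.72 in Slpi-/- BMBs, and at 12.94 and 13.29 with IgE, and the 12 basophil markers averaged 10.5 to 10.7 on all 4 arrays. Xist, transcribed from the inactive X chromosome, lay at 4.04 to 4.46 on the BMB arrays and the Y-linked Eif2s3y at 7.62 to 8.37, so that all 4 read as male. The 2 BMEos arrays with LPS differed from every other array in this, with Xist at 9.66 and 9.72, but alike in both genotypes.

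Genes of other cell types stood apart on single BMB arrays. The 12 neutrophil markers averaged 7.47 on the unstimulated B6 array, against 6.23 to 6.45 on the others. The 6 megakaryocyte markers averaged 8.38 on the B6 array with IgE, against 9.29 to 9.58 on the others. The 11 markers of macrophages and dendritic cells were lowest on that same array, with a mean of 7.16 against 7.54 to 7.65. The 5 mast cell markers above background averaged 8.39 on the Slpi-/- array with IgE, against 8.77 to 8.91 on the others. All 5 were lower in Slpi-/- BMBs with IgE (median -0.51), against 6624 lower of 12631 genes. Of 7 eosinophil markers measured, 2 exceeded background, Ccr3 among them. Their mean was 6.76 in B6 and 7.22 in Slpi-/- BMBs without stimulation, and 5.51 and 6.42 with IgE. The eosinophil granule protein genes Prg2, Prg3 and Epx did not exceed background on any BMB array, and T, NK, B and erythroid markers lay close to it. In cultures of this kind, fewer cells of a type and less RNA per cell cannot be told apart.

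**Figure D1:**
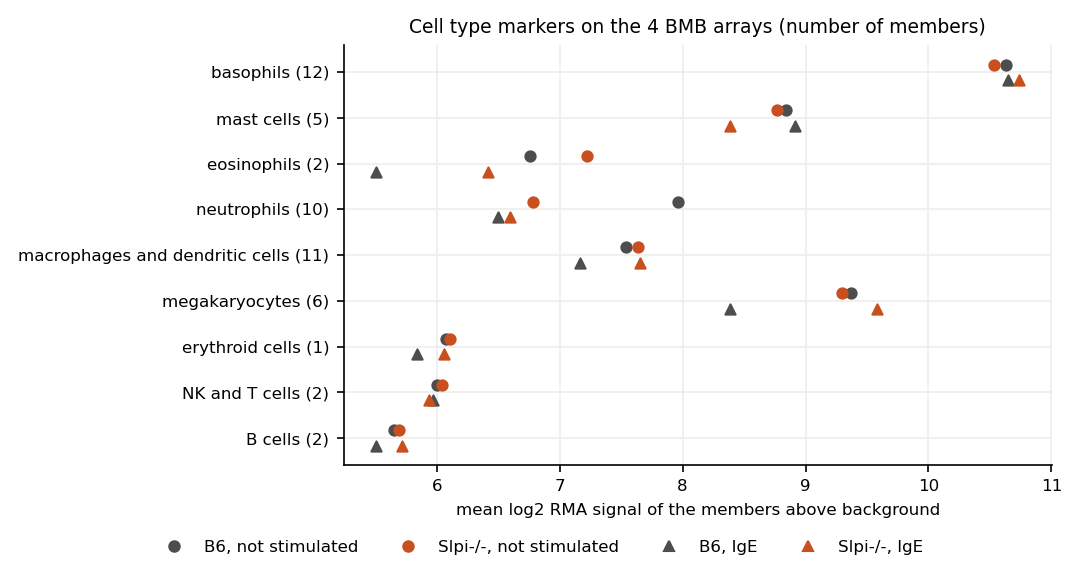
Mean log2 RMA signal of the markers of each cell type that lay above background (their number in brackets) on the 4 BMB arrays, 1 point per array, circles not stimulated and triangles with IgE. The basophil markers coincide near 10.5 to 10.7, and the megakaryocyte markers stand apart on the B6 array with IgE (8.38). The neutrophil mean is highest on the unstimulated B6 array (7.96), but 4 of its 10 members exceeded background on that array alone. Over all 12 neutrophil markers measured, the mean on that array was 7.47.

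Most genes differed little between the genotypes in either state. Without stimulation, 95.5% of 12262 named genes above background lay within 0.5 log2 units of no difference, and with IgE 96.4% of 12165 did. In unstimulated BMBs, 33 genes were at least 2-fold higher in Slpi-/- cells (0.269% of those compared) and 63 at least 2-fold lower (0.514%). With IgE, 58 were at least 2-fold higher (0.477%) and 26 at least 2-fold lower (0.214%). Past 2-fold, lower genes were thus more numerous without stimulation and higher genes with IgE, while over all 12631 genes lower signals were slightly more common in both states (7085 lower and 5544 higher, then 6624 and 6005).

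The differences of the 2 states had little in common beyond Slpi. Across the 11795 other genes above background in both pairs, Pearson's r of the 2 differences was 0.06 and Spearman's rho 0.03, and 50.6% had the same sign. The pairs share no array, but genes are not independent replicates, so these are descriptions with no test. Of 76 genes at least 2-fold apart without stimulation, 33 (43.4%) had the same sign with IgE, and of 74 at least 2-fold apart with IgE, 50 (67.6%) had the same sign without it. At least 2-fold in both pairs were 4 genes that were lower (Slpi, Serinc3, Tshz3 and Plau, 0.0339% of 11796) and 1 that was higher (Lgalsl, 0.00848%).

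**Figure D2:**
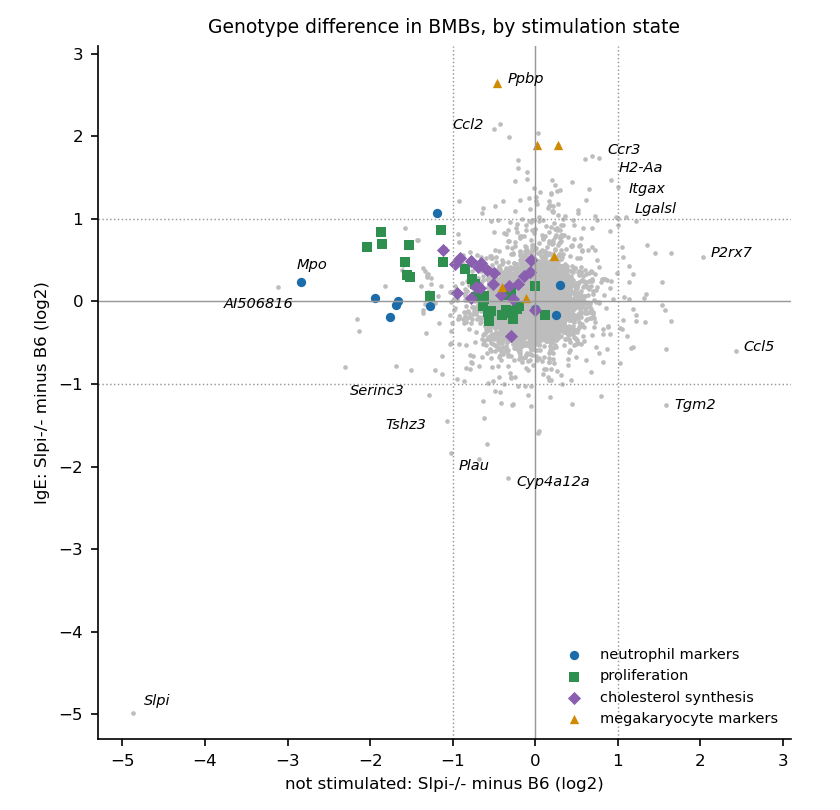
Difference between Slpi-/- and B6 BMBs (log2) without stimulation (x axis) and with IgE (y axis), 1 point for each of the 12631 named genes above background on at least 1 BMB array, with dotted lines at 2-fold and 4 gene lists in colour. Slpi stands alone at the lower left (-4.87 and -4.99). Most neutrophil and proliferation genes lie to the left near the horizontal axis, and megakaryocyte genes lie above the centre.

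Slpi was the only gene that passed the test of the genotype over both states. It fell by 4.93 on the log2 scale (SE 0.12, adjusted p = 5.17e-05, limma), 1 call in 13571 genes tested (0.00737%). The difference was -4.87 without stimulation and -4.99 with IgE, and the difference between the states did not pass (-0.12, adjusted p = 0.94, limma). No other gene passed, while 401 genes that were higher and 516 that were lower, Slpi included, had an unadjusted p under 0.05. When the IgE pair was left out, limma called 15 genes, among them Slpi, Mpo, Tlr2, Ccl5 and Tgm2, and without the unstimulated pair Slpi alone. Each of these fits holds 1 BMB array per genotype and takes its spread from the eosinophil arrays. With a variance trend 9 genes passed, Serinc3, Tshz3, Cd74, Ccl17 and Itgax among them, and the methods' t-test on the 2 pairs called none. These p-values measure only the spread between these arrays, which may be technical.

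Serinc3 was 1 of the genes lower in Slpi-/- BMBs in both states. Serinc3 encodes a membrane protein of the serine incorporator family that is known as a restriction factor of retroviruses. Its signal was 12.89 in B6 and 11.61 in Slpi-/- BMBs without stimulation, and 12.40 and 11.27 with IgE. The 2 Slpi-/- arrays lay below both B6 arrays, and the mean difference was -1.21 (SE 0.12, adjusted p = 0.0602, limma), which did not pass. Serinc3 was lower in the Slpi-/- array of every pair of the study: 13.09 in B6 and 11.04 in Slpi-/- mast cells, 12.85 and 12.01 in unstimulated BMEos, and 12.66 and 11.49 after LPS. It lies on chromosome 2, as Slpi does, with 21 measured named genes between them.

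Pkig, which encodes an inhibitor of protein kinase A and lies on chromosome 2 with 19 measured named genes between it and Slpi, showed the same order at a lower signal. It had 5.76 in B6 and 4.96 in Slpi-/- BMBs, 6.10 and 5.28 with IgE, 6.80 and 5.63 in mast cells, 6.53 and 5.72 in unstimulated BMEos, and 6.29 and 5.68 after LPS. In BMBs only its B6 signals lay above background, and the mean difference was -0.81 (adjusted p = 0.12, limma). Of the 20 measured genes nearest to Slpi, 6 lay above background, and none was 2-fold apart in either state, with differences between -0.60 and 0.51. Chromosome 2 holds 7.98% of the genes above background in BMBs. Linkage of Serinc3 and Pkig to the Slpi locus was not tested.

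Plau, which encodes urokinase, the serine protease that activates plasminogen, had 8.27 in B6 and 7.25 in Slpi-/- BMBs without stimulation, and 8.86 and 7.02 with IgE. The mean difference was -1.43 (SE 0.19, adjusted p = 0.14, limma), the largest after Slpi among the 20 genes with the lowest p. In the other cells Plau had 9.71 in B6 and 9.59 in Slpi-/- mast cells and lay below background in BMEos, and the BMB difference did not pass against either (adjusted p = 0.85 and 0.38, limma). Htra1, a secreted serine protease, was measured at 7.45 and 6.32 without stimulation and at 8.51 and 7.64 with IgE, and the tryptase Tpsg1 at 9.46 and 8.67, then 10.54 and 9.89. In each of these protease genes the Slpi-/- array was the lower one of its pair, with adjusted p of 0.07 for Htra1 and 0.15 for Tpsg1 in limma. The transcription factor gene Tshz3 had 9.06 and 8.0, then 8.77 and 7.32 (mean difference -1.26, SE 0.13, adjusted p = 0.0602, limma).

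Cd74 and Itgax, from the list of macrophage and dendritic cell markers, were among the genes with the lowest p that were higher in both states. Cd74, the invariant chain that escorts class II molecules, had 8.47 in B6 and 9.47 in Slpi-/- BMBs, and 8.12 and 9.13 with IgE. The differences were 1.00 and 1.01 (mean 1.00, SE 0.09, adjusted p = 0.0602, limma). H2-Aa, a class II alpha chain, had 7.44 and 8.35, then 6.23 and 7.69, and its partner chain H2-Ab1 7.33 and 7.82, then 7.42 and 7.83. Itgax, the integrin chain CD11c of dendritic cells, had 6.12 and 7.12, then 6.47 and 7.86 (mean 1.20, SE 0.12, adjusted p = 0.0602, limma). In all of these the Slpi-/- array was higher than the B6 array of the same state. In mast cells and BMEos the Cd74 difference lay between -0.13 and 0.05, and the BMB difference did not pass against either (adjusted p = 0.59 against mast cells and 0.38 against BMEos, limma).

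Ccl17, a chemokine that attracts T helper 2 cells and is a known product of dendritic cells, had 7.47 in B6 and 8.69 in Slpi-/- BMBs, and 9.94 and 10.91 with IgE (mean 1.10, SE 0.11, adjusted p = 0.0602, limma). Both IgE arrays lay above both unstimulated arrays, and Slpi-/- was the higher genotype in each state. Plxnc1, a semaphorin receptor, had 6.81 and 7.72, then 6.94 and 7.80, and Bcl2a1c, a gene of the A1 family of survival proteins, whose members resemble each other so that its probes may read more than 1 of them, had 5.30 and 6.30, then 5.39 and 6.32. Each was higher on the Slpi-/- array of both pairs. Both B6 signals of Bcl2a1c lay below background, so that its differences are not exact. Lgalsl, a galectin-like gene, had 9.07 and 10.16, then 7.74 and 8.76, the only gene 2-fold higher in both pairs (adjusted p = 0.21, limma). Cd74, H2-Aa, H2-Ab1 and Itgax were among the markers of macrophages and dendritic cells. Of the 11 such markers above background, 4 were higher and 7 lower without stimulation (median difference -0.14), and 8 were higher and 3 lower with IgE (median 0.40), against medians of -0.03 and -0.01 over all genes. Of these 11, 1 exceeded background on the unstimulated B6 array alone. The part of macrophages and dendritic cells in the higher genes was not tested.

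**Figure D3:**
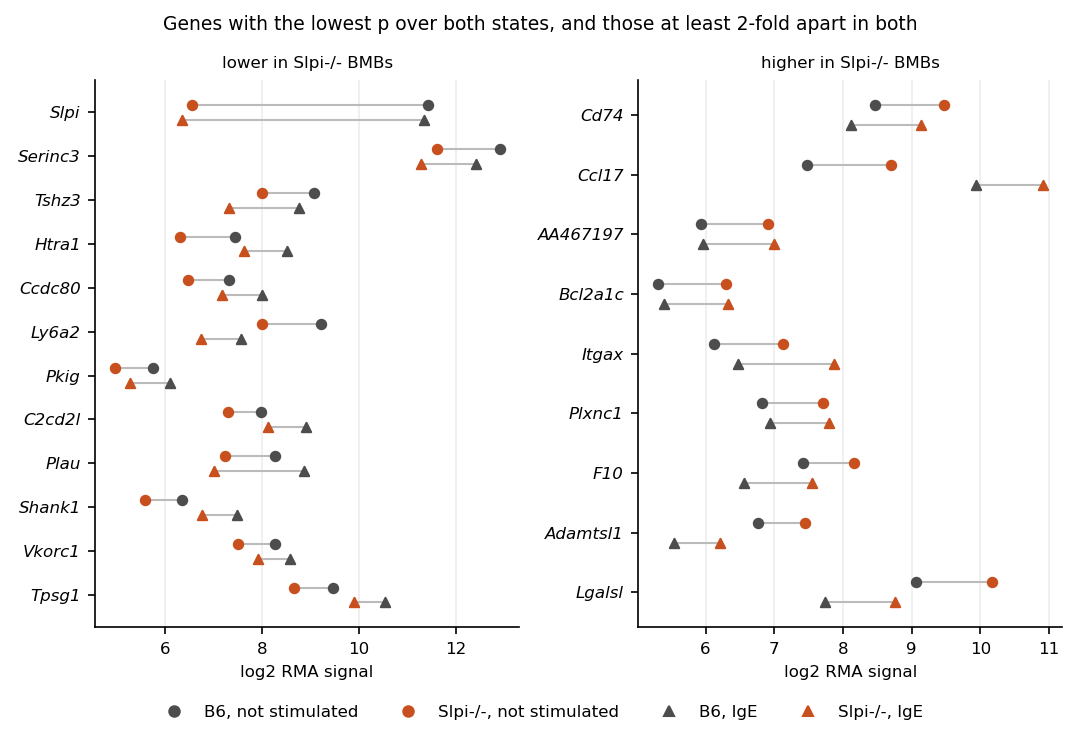
Log2 RMA signals of the genes with the lowest p for the genotype over both states and of those at least 2-fold apart in both, 1 point per array, with a line joining B6 and Slpi-/- of the same state. Every gene of the left panel is lower and every gene of the right panel higher in Slpi-/- BMBs in both states, and the line of Slpi (4.87 and 4.99 units long) is longer than any other.

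A larger number of genes were apart in 1 state only, counted as at least 2-fold in that pair, not so in the same direction in the other, and with at least 1 log2 unit between the 2 differences. Of 12631 genes above background, 49 were lower in unstimulated Slpi-/- BMBs only (0.388%) and 24 higher there only (0.19%), while 37 were higher with IgE only (0.293%) and 12 lower with IgE only (0.095%). Of the 49, the unstimulated B6 array was the highest of all 4 in 40 genes and the unstimulated Slpi-/- array the lowest in 38, with both true of 29. Of the 37, the Slpi-/- array with IgE was the highest in 29 genes and the B6 array with IgE the lowest in 29, with both true of 21. The rule that picked these genes used the same 4 arrays and favours such orders. The counts therefore only describe the genes picked. The test of the difference between states called 0 of 13571 genes (0%) in limma. At an unadjusted p under 0.05, the genotype difference (Slpi-/- minus B6) was higher with IgE than without in 634 genes and lower in 411. That test has no replicate BMB arrays and takes its spread from the BMEos arrays, so it assumes that BMBs vary as those do. Its count was 5 with arrays centred on their medians, 29 with a stricter background and 176 with a variance trend.

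The largest listed group lower in unstimulated Slpi-/- BMBs only was of the cell cycle. All 31 proliferation genes measured, of 32 listed, lay above background on at least 1 BMB array, 1 of them on the unstimulated B6 array alone. Without stimulation, 30 of them were lower and 1 higher, 10 at least 2-fold lower, with a median difference of -0.62, against 0.514% at least 2-fold lower and a median of -0.03 over all genes. With IgE, 19 were higher and 12 lower, none 2-fold, with a median of 0.07. Their mean signal was 7.37 in B6 and 6.57 in Slpi-/- BMBs without stimulation, and 7.07 and 7.24 with IgE, so the lowest array was the unstimulated Slpi-/- one and the highest the unstimulated B6 one. The difference between states had an unadjusted p under 0.05 in limma for 16 of the 31, and no member passed after adjustment. All 16 lay toward a higher genotype difference with IgE, against 4.88% of genes above background in that direction and 3.01% in the other.

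Single members showed the same order. Mki67, the gene of the proliferation antigen Ki-67, had 8.32 in B6 and 6.46 in Slpi-/- BMBs without stimulation, and 6.60 and 7.45 with IgE. Ccna2, the cyclin of S phase, had 7.95 and 5.90, then 6.53 and 7.19, and Top2a, the topoisomerase of dividing cells, 7.35 and 5.78, then 6.42 and 6.90. In these genes the unstimulated B6 array was the highest, and the genotype order turned with IgE. Kif11, a spindle motor, had 7.23 and 5.37, then 5.38 and 6.08, and thus exceeded background on the unstimulated B6 array and on the Slpi-/- array with IgE. Cdk1, the mitotic kinase, had 7.19 and 5.91, then 6.73 and 6.80, and Ccnb2, a mitotic cyclin, 7.80 and 6.29, then 6.38 and 6.67.

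Cholesterol synthesis genes were also lower in unstimulated Slpi-/- BMBs by sign, but were highest on the Slpi-/- array with IgE. Of 22 members above background, 1 exceeded it only on the Slpi-/- array with IgE. All 22 were lower in unstimulated Slpi-/- BMBs, the least so at -0.0013, with a median difference of -0.55. Over all 12631 genes 7085 were lower. At least 2-fold lower was 1 member, against 0.514% over all genes. With IgE 20 were higher and 2 lower, with a median of 0.26, against 6005 higher of 12631 genes. Their mean signal was 7.82 in B6 and 7.29 in Slpi-/- BMBs, and 7.95 and 8.20 with IgE. The difference between states had an unadjusted p under 0.05 in limma for 15 of the 22, and none passed after adjustment. All 15 lay toward a higher genotype difference with IgE, against 4.88% of genes above background in that direction and 3.01% in the other. Fdps, which makes farnesyl diphosphate, had 7.23 and 6.11, then 7.47 and 8.10. Hmgcs1, which makes the precursor of mevalonate, had 7.72 and 6.95, then 8.02 and 8.51, and Cyp51, a sterol demethylase, 7.05 and 6.14, then 7.26 and 7.79. In each the unstimulated Slpi-/- array was the lowest and the Slpi-/- array with IgE the highest. The list also holds genes of fatty acid synthesis and cholesterol transport, such as Fasn, fatty acid synthase, with 9.19 and 8.42, then 9.89 and 9.93. Abcg1, an exporter of cholesterol, had 10.04 and 9.75, then 9.47 and 9.05, and was 1 of the 2 members lower with IgE.

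Promoters of members of these 2 groups are shown because their members lay on the same side in the unstimulated pair. The sequences are from RefSeq (GRCm38.p6), the 150 bases before the annotated start on the strand of the gene, 5′ to 3′. Capitals mark matches on either strand to CCAAT (the CCAAT box), TTTGAA (the cell cycle homology region) and TCACNCCAC (a sterol regulatory element).
Mki67, chr7:135716380-135716529, minus strand: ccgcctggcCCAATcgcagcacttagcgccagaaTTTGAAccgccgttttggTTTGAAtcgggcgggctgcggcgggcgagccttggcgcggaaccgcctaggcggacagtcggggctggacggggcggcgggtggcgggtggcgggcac
Top2a, chr11:99024190-99024339, minus strand: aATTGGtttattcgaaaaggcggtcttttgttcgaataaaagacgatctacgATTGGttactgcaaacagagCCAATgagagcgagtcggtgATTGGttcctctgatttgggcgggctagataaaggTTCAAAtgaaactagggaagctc
Ccnb2, chr9:70421555-70421704, minus strand: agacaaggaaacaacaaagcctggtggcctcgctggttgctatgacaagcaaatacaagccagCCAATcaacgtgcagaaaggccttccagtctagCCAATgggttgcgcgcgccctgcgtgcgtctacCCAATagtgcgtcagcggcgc
Cdk1, chr10:69352913-69353062, minus strand: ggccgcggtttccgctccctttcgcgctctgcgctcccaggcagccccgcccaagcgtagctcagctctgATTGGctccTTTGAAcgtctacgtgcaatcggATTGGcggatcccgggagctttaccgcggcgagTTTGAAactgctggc
Hmgcs1, chr13:119690201-119690350, plus strand: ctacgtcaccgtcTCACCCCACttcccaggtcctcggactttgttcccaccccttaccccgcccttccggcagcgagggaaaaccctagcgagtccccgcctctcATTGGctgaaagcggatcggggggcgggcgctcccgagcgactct

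In the 300 bases around each start that the tables hold, 24 of the 31 proliferation genes matched, with 26 promoters, and 16 of the 22 cholesterol genes, with 19. CCAAT stood in 20 of the 26 (76.9%) and in 15 of the 19 (78.9%), against 37.4% of all 32851 promoters. TTTGAA stood in 11 of the 26 (42.3%) and in 1 of the 19 (5.26%), against 17.9% of all. TCACNCCAC stood in none of the 26 and in 1 of the 19 (5.26%), that of Hmgcs1, against 1.24% of all. Matches to different motifs may overlap and were counted separately. The motifs were chosen after the values were seen, and a match describes letters in a window, not a site.

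Several neutrophil granule genes formed the other group. Of 12 neutrophil markers measured, 10 exceeded background on at least 1 BMB array, 4 of them on the unstimulated B6 array alone, so their counts and median are not used here. Mpo, the myeloperoxidase of azurophil granules, had 8.84 in B6 and 6.0 in Slpi-/- BMBs, and 5.60 and 5.84 with IgE, with the unstimulated B6 array as the high one. The same array was high for Elane, neutrophil elastase and a target of SLPI protein, with 7.14 and 5.47, then 5.16 and 5.17, and for Prtn3, proteinase 3, with 7.25 and 5.57, then 5.60 and 5.55. S100a8, a calcium-binding protein of neutrophils, had 5.79 and 3.84, then 4.0 and 4.04. On the 3 other BMB arrays Elane and S100a8 lay below background, S100a8 by a wide margin, and Mpo and Prtn3 lay close to it. The listed markers Ly6g and Cxcr2 did not share the pattern: Ly6g had 12.38 and 12.68, then 10.95 and 11.15, and Cxcr2 11.42 and 11.41, then 11.34 and 11.25. Both stood far above background on every BMB array, and which cells gave their signal was not tested. Camp, a granule gene of the same list, went the other way without stimulation, with a difference of 0.25, and had -0.16 with IgE. The highest difference in the list with IgE was 1.07. Mpo, Elane, Prtn3 and S100a8 and the mean of the proliferation genes stood highest on the unstimulated B6 array. The part of immature granulocytes in either group was not tested.

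Among the other genes lower in unstimulated Slpi-/- BMBs were Tlr2, a receptor for bacterial lipopeptides, with 9.04 and 6.90 (10.80 and 10.44 with IgE), and Ccn3, a matricellular protein, with 10.72 and 8.56 (10.59 and 10.38). In both, the unstimulated Slpi-/- array was the low one. Lif, a cytokine of the IL-6 family, had 9.95 and 8.73, then 11.12 and 11.10. Of 25 genes of the unfolded protein and stress response, 19 were lower and 6 higher without stimulation (median -0.27) and 8 lower and 17 higher with IgE (median 0.03). Over all 12631 genes, 7085 were lower without stimulation and 6005 higher with IgE. Hspa5, the chaperone BiP of the heat shock list, had 10.42 and 9.69, then 11.72 and 11.64.

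Higher in unstimulated Slpi-/- BMBs only were 24 genes, of which the unstimulated Slpi-/- array was the highest of 4 in 22, an order that the rule of selection favours. Ccl5, a chemokine that attracts T cells and eosinophils, led with 7.55 in B6 and 9.97 in Slpi-/- BMBs, and 7.60 and 6.99 with IgE. Ccr7, the receptor that guides dendritic and T cells to lymph nodes, had 7.96 and 9.60, then 8.19 and 7.94. P2rx7, a channel gated by extracellular ATP, had 7.60 and 9.63, then 6.18 and 6.72, and Pla2g7, which cleaves platelet-activating factor, 7.30 and 8.89, then 7.63 and 7.05. One array, the unstimulated Slpi-/- one, was the high one in each of these. Ccl22, a chemokine for T helper 2 cells, had 7.58 and 9.23, then 9.04 and 9.62, with the unstimulated B6 array as the low one. Il17rb, a subunit of the IL-25 receptor, had 5.40 and 6.94, then 5.46 and 5.42, and Cd83, an activation marker of dendritic cells, 6.11 and 7.43, then 6.46 and 6.50. Il17rb exceeded background only on the unstimulated Slpi-/- array.

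Among the genes with the lowest p for the difference between states, some had opposite directions in the 2 states. Tgm2, tissue transglutaminase, had 9.05 in B6 and 10.64 in Slpi-/- BMBs without stimulation, and 10.43 and 9.17 with IgE. It was thus 1.58 higher in one state and 1.26 lower in the other, a gap of -2.84 (SE 0.18, adjusted p = 0.107, limma). The gap was -3.03 (SE 0.22) for Ccl5 and 3.08 (SE 0.25) for Mpo, each with the same adjusted p of 0.107 in limma. Akr1c18, an enzyme that degrades progesterone, had 11.11 and 9.53, then 10.75 and 11.64. AI506816, a transcript with no assigned function, had 8.17 and 5.05, then 9.38 and 9.55, of which 5.05 lay below background, so that its difference without stimulation is not exact. None passed, and their order is that of 1 array per condition.

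**Figure D4:**
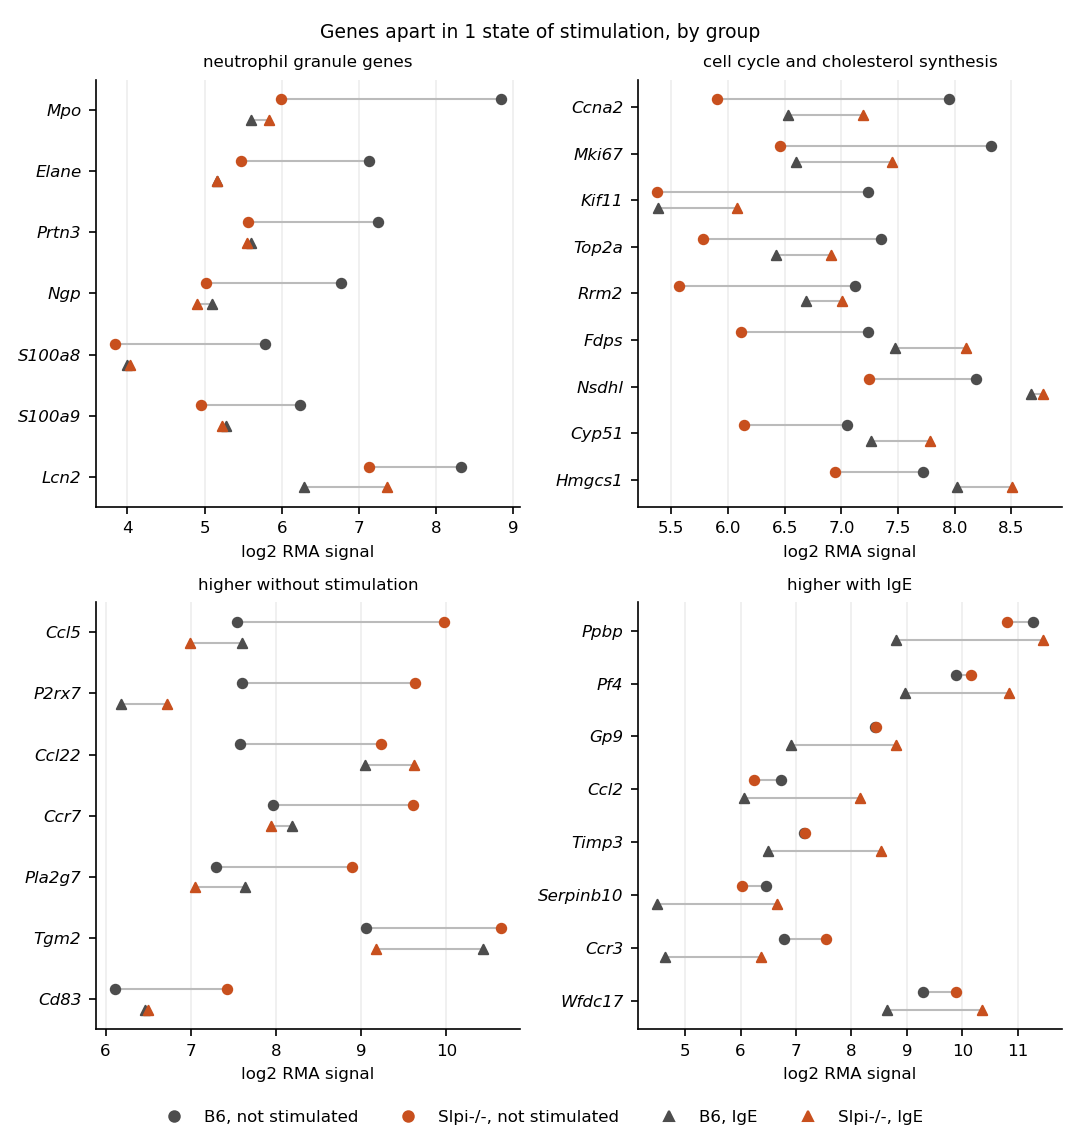
Log2 RMA signals on the 4 BMB arrays of genes in 4 groups, with a line joining B6 and Slpi-/- of the same state. Of the cholesterol synthesis list, 1 gene met the rule for genes apart in 1 state. Cyp51 and Hmgcs1 are less than 2-fold apart in both states. Circles are not stimulated and triangles with IgE. The unstimulated B6 array is the high one for the neutrophil granule genes shown, which leave out Camp. The unstimulated Slpi-/- array is the high one for most genes of the lower left panel. The B6 array with IgE is the low one for most genes of the lower right panel.

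With IgE, Ppbp showed the highest difference of all genes, and Pf4 and Gp9, also megakaryocyte markers, were among the 10 highest. Ppbp, the platelet basic protein and a chemokine, had 11.27 in B6 and 10.81 in Slpi-/- BMBs without stimulation, and 8.81 and 11.45 with IgE. Pf4, platelet factor 4, had 9.88 and 10.16, then 8.96 and 10.85, and Gp9, a subunit of the receptor for von Willebrand factor, 8.42 and 8.44, then 6.91 and 8.80. In all of them the B6 array with IgE was the low one, and the Slpi-/- array with IgE was the highest of 4. All 6 megakaryocyte markers above background were higher in Slpi-/- BMBs with IgE, 3 of them at least 2-fold (median 1.22, with 0.477% of all genes 2-fold higher), while 3 were higher and 3 lower without stimulation (median -0.05). The antibody DX5 used for the selection binds CD49b, an integrin chain that platelets also carry. The part of megakaryocytes in these differences was not tested.

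Chemokine genes were higher in Slpi-/- BMBs with IgE in 18 of 19 members above background, 4 of them at least 2-fold (median 0.23), against 6005 of 12631 genes higher by sign and 0.477% at least 2-fold higher over all genes. Without stimulation 10 were higher and 9 lower, also with 4 at least 2-fold higher (median 0.02), against 0.269% over all genes. Of the 19 members, 1 exceeded background only on the Slpi-/- array with IgE and 1 only on the unstimulated B6 array. Ppbp and Pf4 are 2 of the 19. Ccl2, which attracts monocytes, had 6.74 in B6 and 6.23 in Slpi-/- BMBs without stimulation, and 6.06 and 8.15 with IgE. Ccl24, an eotaxin, had 6.18 and 6.0, then 6.46 and 7.69, and Ccl7, another attractant of monocytes and eosinophils, 6.32 and 6.10, then 6.03 and 6.97. The Slpi-/- array with IgE was the highest of 4 in each of these, and Ccl5 was the 1 member lower with IgE. Ccr3, the eotaxin receptor and a listed eosinophil marker, had 6.78 and 7.55, then 4.63 and 6.36, and lay below background only on the B6 array with IgE.

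Some genes of matrix proteases and their inhibitors were also among those higher with IgE. Of 18 metalloproteinase and TIMP genes above background, 12 were higher and 6 lower with IgE, 4 at least 2-fold higher (median 0.18) against 0.477% of all genes, and 9 were higher and 9 lower without it. By sign the split is not far from that of all genes (6005 higher of 12631). Of the 18, 1 exceeded background only on the Slpi-/- array with IgE and 1 only on the unstimulated B6 array. Timp3, an inhibitor bound to matrix, had 7.14 and 7.17, then 6.50 and 8.54. Mmp12, the elastase of macrophages, had 8.46 and 8.63, then 9.17 and 10.33, and the gelatinase gene Mmp9, which also lies on chromosome 2, 5.89 and 6.17, then 5.36 and 6.54. The Slpi-/- array with IgE was the highest in each of these. Among protease inhibitors other than Slpi, Serpinb10 had 6.46 and 6.03, then 4.50 and 6.65, and Wfdc17, which holds a WAP domain as SLPI does, 9.29 and 9.89, then 8.64 and 10.36. On the B6 array with IgE, Serpinb10 and Mmp9 lay below background, so that their differences there are not exact. Over the list, 9 of 17 inhibitors above background were higher without stimulation (median 0.06) and 4 with IgE (median -0.26). Over all 12631 genes, 5544 and 6005 were higher. Slpi was the 1 member of the list that passed the test.

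Genes lower in Slpi-/- BMBs with IgE were fewer, and none of the 12 counted in that state only belonged to a list. Tph1, the rate-limiting enzyme of serotonin synthesis outside the brain, had 5.76 in B6 and 5.79 in Slpi-/- BMBs without stimulation, and 9.52 and 7.93 with IgE. It was thus higher with IgE in both genotypes, and less so in Slpi-/- cells, with a gap of -1.62 (SE 0.22, adjusted p = 0.16, limma). Penk, the precursor of enkephalins, had 5.24 and 5.19, then 6.83 and 5.56. Cysltr2, a receptor for cysteinyl leukotrienes, had 5.73 and 5.11, then 6.75 and 5.34. In these the B6 array with IgE was the high one. The Slpi-/- signals of Penk and Cysltr2 lay below background, as did Penk in unstimulated B6 BMBs. Cyp4a12a had 6.14 and 5.81, then 7.11 and 4.97, of which 4.97 lay below background, so that its difference with IgE is not exact. Its probes may also read its near-identical neighbour Cyp4a12b, which showed the same order.

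Genes of IgE receptor signalling showed no difference of 2-fold in either state. Of 38 genes of IgE receptor signalling, all above background, 22 were higher and 16 lower without stimulation (median 0.03) and 17 higher and 21 lower with IgE (median -0.02), and the differences ran from -0.30 to 0.65. Fcer1a, the IgE-binding chain, had 11.43 in B6 and 11.47 in Slpi-/- BMBs, and 11.20 and 10.90 with IgE, and the shared signalling chain Fcer1g stayed within 12.29 to 12.43. The 22 genes of the JNK, ERK and ELK pathway had medians of -0.02 and -0.01. Elk1, a transcription factor that MAP kinases phosphorylate, had 8.32 and 8.14, then 8.21 and 8.38, and Mapk8ip3, the scaffold protein JIP3, 8.27 and 8.51, then 8.48 and 8.31. Of 22 NF-kB genes, 18 were higher and 4 lower without stimulation (median 0.15) and 8 higher and 14 lower with IgE (median -0.06). Over both states 4 had an unadjusted p under 0.05 in limma, all higher, and none passed after adjustment. Of all genes above background, 2.84% were higher and 3.96% lower at that unadjusted p. Cd83, described above, was the 1 at least 2-fold higher without stimulation, and Nfkbia, the inhibitor IkBa, had 8.72 and 9.0, then 9.03 and 8.80. Over all genes the medians were -0.03 and -0.01, and 5544 and 6005 of 12631 genes were higher.

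**Figure D5:**
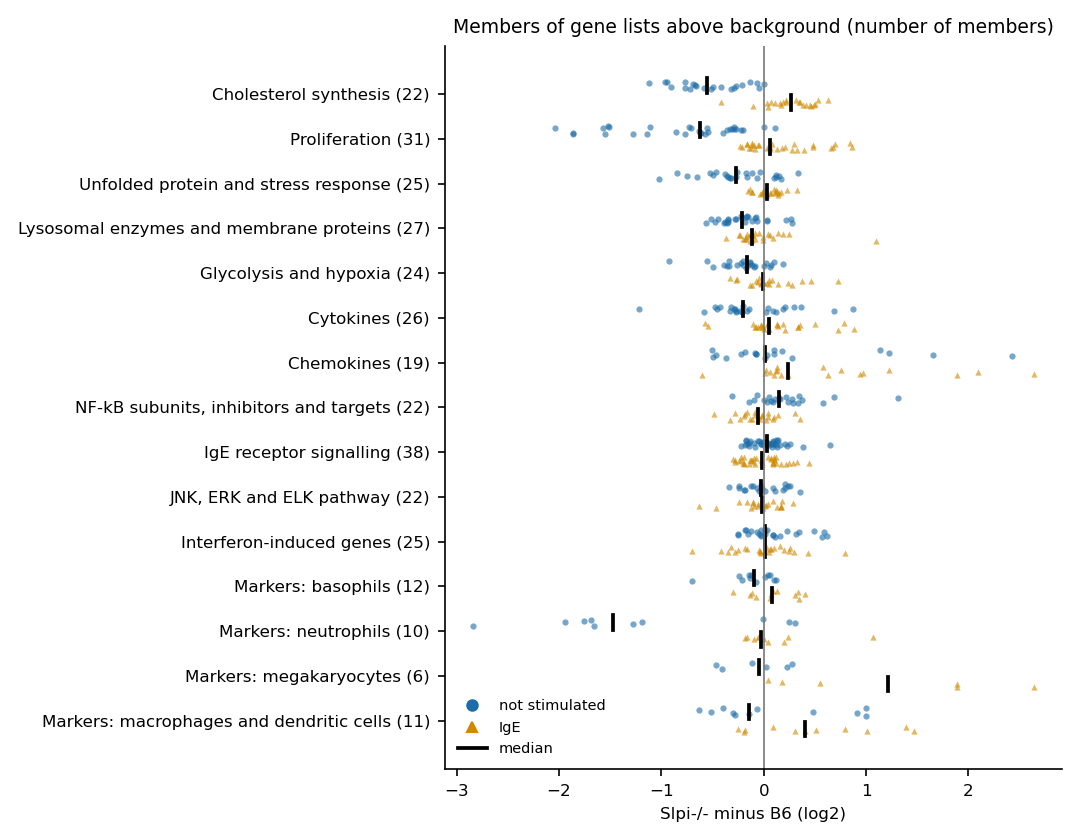
Difference between Slpi-/- and B6 BMBs (log2) for each member above background of 15 gene lists, circles without stimulation and triangles with IgE, with a bar at the median. Medians of cholesterol synthesis (-0.55 and 0.26) and proliferation (-0.62 and 0.07) differ between the states, several neutrophil markers lie low without stimulation, 4 of which exceeded background on the unstimulated B6 array alone, and IgE receptor signalling lies near 0 in both.

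The cytokine genes Il4, Il6 and Il13 were higher with IgE in both genotypes. Il4, which drives T helper 2 responses, had 7.23 in B6 and 7.36 in Slpi-/- BMBs without stimulation, and 7.99 and 8.33 with IgE. Il6, a cytokine of inflammation, had 9.09 and 8.81, then 11.26 and 11.61, and Il13, which induces mucus and IgE responses, 7.15 and 6.84, then 8.98 and 9.71. With IgE the Slpi-/- array was the higher one in each, by 0.33 to 0.73, and without it only in Il4. The gap between states was 0.21 for Il4, 0.62 for Il6 and 1.04 for Il13, with adjusted p of 0.92, 0.54 and 0.22 in limma. Tnf, in contrast, had 7.31 and 6.85, then 9.15 and 9.18. Over the 26 cytokine genes above background, 16 were lower without stimulation (median -0.20) and 16 higher with IgE (median 0.05). Over all 12631 genes these numbers were 7085 and 6005. Of the 26, 1 exceeded background only on the unstimulated Slpi-/- array and 1 only on the B6 array with IgE.

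Granule protease genes lay on both sides. Of 16 above background, 1 exceeded it on the unstimulated B6 array alone. Without stimulation 10 were lower and 6 higher (median -0.18), against 7085 lower of 12631 genes and a median of -0.03. Elane and Prtn3, described above, were at least 2-fold lower, against 0.514% of all genes. With IgE 9 were lower and 7 higher (median -0.03), against 6624 lower of 12631 genes. Tpsb2, a tryptase that is also on the mast cell marker list, had 11.02 and 10.81, then 11.51 and 10.49, the 1 member at least 2-fold lower with IgE. Prss34, the basophil protease MCP-11, had 12.99 and 12.78, then 12.57 and 12.70. Hdc, the enzyme that makes histamine, had 12.35 and 12.21, then 12.94 and 13.01, higher with IgE in both genotypes and close between them. Alox15, a lipoxygenase, had 9.95 and 10.30, then 5.99 and 7.02. It was the 1 of 18 leukotriene and prostaglandin genes at least 2-fold higher in Slpi-/- BMBs with IgE, while Cysltr2, described above, was the 1 at least 2-fold lower. Over all genes, 0.477% were at least 2-fold higher with IgE and 0.214% at least 2-fold lower.

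Most lysosomal genes were lower by sign, with small differences. Of 27 lysosomal enzyme and membrane protein genes, 22 were lower and 5 higher without stimulation (median -0.21), and 20 lower and 7 higher with IgE (median -0.11). The genotype difference over both states had an unadjusted p under 0.05 in limma for 8 that were lower and 1 that was higher, against 3.96% and 2.84% of genes above background, and none passed after adjustment. Over all 12631 genes, 7085 were lower without stimulation and 6624 with IgE. Gla, an alpha-galactosidase, had 10.88 and 10.36, then 10.88 and 10.76, and Ctsz, a cathepsin, 10.51 and 9.94, then 10.90 and 10.80. Atp6v0d2, a subunit of the proton pump known from osteoclasts and macrophages, went the other way with 7.03 and 7.25, then 6.48 and 7.58.

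The genotype difference in BMBs was set against that in the other cells in the same fit. Slpi was lower in Slpi-/- BMEos as well, with 8.08 and 6.41, and with 7.96 and 5.93 under LPS, but the BMB difference exceeded it by 3.08 on the log2 scale (-3.08, SE 0.17, adjusted p = 0.00989, limma), the 1 gene called of 13571 (0.00737%). In mast cells Slpi lay at 6.53 and 6.47, and the BMB difference was lower by 4.87 (-4.87, SE 0.20, adjusted p = 0.00192, limma). A second gene passed against mast cells (0.0147%), Slc27a6, a fatty acid transport protein. Its signals in BMBs were below background, 4.76 and 4.63, then 4.58 and 4.70, while mast cells had 5.15 in B6 and 8.81 in Slpi-/- cells (-3.67, SE 0.23, adjusted p = 0.0123, limma). That call therefore rests on the single mast cell pair and not on BMBs. For no other gene did the BMB difference pass against either cell type, with 826 and 701 genes at an unadjusted p under 0.05 against BMEos and mast cells.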

How the data were processed

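RNA of bone marrow-derived basophils, mast cells and eosinophils was hybridised to Affymetrix whole-transcript mouse arrays, 10 in all. The authors made log2 signals by robust multi-array averaging (RMA in the package affy, versions not given in the sources used here), and these deposited values were used with no further normalization. Of 34760 probe sets, 21640 carried 1 symbol (1321 several, 11799 none) and gave 19937 named genes, each of the 954 genes with several being read from its brightest one. Of these probe sets, 21553 matched RefSeq (GRCm38.p6) by gene ID.

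Pairs of arrays were compared as log2 differences with no p. limma 3.58.1 in R 4.3.3 (Benjamini-Hochberg adjustment, threshold 0.05) was run on 13571 genes above background on at least 1 of the 10 arrays. The genotype over both states came from a fit of cell type by genotype means with IgE and LPS terms (2 residual degrees of freedom), and the difference between states from a fit with a mean for each BMB condition (1 residual degree of freedom, from eosinophils). The step was tested on simulated data. The simulation gave a gene the same spread on all arrays, so it cannot check whether BMBs vary as the other cells do. The methods name a paired t-test, which was run as an alternative. The number of arrays limits the precision.

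Genes named were those of the paper's basophil work, the 10 highest and 10 lowest of each pair, those at least 2-fold apart in both pairs, those with the lowest p, and up to 6 members of each gene list. H2-Ab1, Ly6g, Cxcr2, Abcg1, Ccl7, Ccnb2, Cdk1, Tnf, Slc27a6, Prg2, Prg3, Epx, Xist and Eif2s3y fall outside this rule and were chosen after their values were seen. Members and the 34 lists (656 of 727 genes measured) were chosen with earlier results of these data known. Alternatives were other scaling, background, probe set and fold rules, a variance trend, other arrays in the fit, and each pair left out. Tables were made in Python 3.11.15 with pandas 2.3.3, scipy 1.17.1 and numpy 2.4.6, and figures with matplotlib 3.10.9.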

Additional observations from a re-analysis of the deposited data

Results flagged for a closer look

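Only 3 results stood out by a test of the difference between cell types. The Slpi difference between Slpi-/- and B6 cells was lower in BMBs than in BMEos by 3.08 on the log2 scale (-3.08, SE 0.17, adjusted p = 0.00989, limma), with 0.00118 to 0.0268 over the alternatives. Against mast cells it was lower by 4.87 (-4.87, SE 0.20, adjusted p = 0.00192, limma), with 0.000172 to 0.00541 over the alternatives. Slc27a6 differed between BMBs and mast cells by -3.67 (SE 0.23, adjusted p = 0.0123, limma), and its signals in BMBs were below background. The mast cell side of both comparisons is 1 pair of arrays.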

How the results depend on the processing

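No result changed direction. The number of genes apart moved with the fold required. At 1.5-fold, unstimulated BMBs had 130 genes higher and 234 lower, BMBs with IgE 188 and 122, and both pairs 19 and 23, while 78 and 169 were apart without stimulation only and 127 and 64 with IgE only. At 3-fold, the counts were 5 and 17, 12 and 6, 0 and 1, 3 and 13, and 9 and 2. Quantile normalization gave 2 genes higher in both pairs instead of 1. The test of the genotype over both states called 1 gene. A variance trend on mean signal called 9 (Slpi, Serinc3, Tshz3, Ly6a2, Cd74, Ccl17, Itgax, Plxnc1 and Bcl2a1c), the methods' t-test on the 2 pairs called 0 (647 at an unadjusted p under 0.05), and leaving out 1 pair gave 1 to 15, the 15 coming without the IgE pair. The adjusted p of Slpi ran from 2.51e-06 to 0.982, the latter by the t-test, which has 1 degree of freedom. The difference between states called 0 genes, but 5 with arrays centred on their medians, 29 with a stricter background (the 99th percentile) and 176 with the variance trend. The cause of these changes was not tested. The labels give no replicate numbers, so pairs were set by stimulation state alone. The fit holds them through its IgE term, and without that term it also called 1 gene. Of 99 recounts, 72 stayed within 1.5 times the value reported, and of 136 list medians 127 stayed close, the 9 others being those with no filter on signal.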
